A study of Homo sapiens with 6 samples.

Results

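The loci of 10 genes for CTCF, cohesin and proteins that act with them were examined in chromatin immunoprecipitation sequencing (ChIP-seq) peak lists from human lung epithelial cell lines. The genes were CTCF, RAD21, SMC3, STAG1, NIPBL, MAU2, PDS5A, PDS5B, YY1 and ZNF143. A peak was taken as belonging to a locus if its summit lay within 100 kb of the gene's start on hg19, with starts given to the nearest 1 kb. The rule uses no measured value, but the genes were chosen with earlier results of these data known. Of 35687 peaks in 3 lists, 79 met the rule: 17 of 9769 BRD8 peaks in Calu3, 26 of 9505 BRD8 peaks in 16HBE14o- and 36 of 16413 CTCF peaks in Calu3. Calu3 is a lung adenocarcinoma line, 16HBE14o- is a bronchial epithelial line, and both were grown in DMEM with 10% FBS without treatment. The 6 samples were 2 replicates of each of the 3 experiments. BRD8 was precipitated from both lines with an Active Motif antibody, and CTCF from Calu3 with a Millipore antibody. The authors combined the 2 replicates of each experiment into 1 list by the irreproducible discovery rate (IDR), so there are no values per replicate here, no spread between cultures and no test across samples. The depth behind each list is unknown. Each line is a single cell line, and CTCF was not mapped here in 16HBE14o-.

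Cohesin is a ring of SMC proteins closed by RAD21, with a STAG subunit bound to it. NIPBL and MAU2 load it onto chromatin, PDS5 proteins regulate its hold and its release, and the ring extrudes DNA loops that tend to end where CTCF is bound. CTCF is a zinc finger protein found at insulators and loop anchors, YY1 joins enhancers to promoters, and ZNF143 is a zinc finger activator that binds promoters. BRD8 carries a bromodomain, which reads acetylated histones, and belongs to the histone acetylating complex NuA4/TIP60. The comparison here asks where BRD8 and CTCF were called at the genes for this machinery.

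Promoter sequences bear on the start sites at which peaks were called, and 9 of the 10 genes had an entry in the RefSeq promoter table (GRCh38.p14, 250 bases before to 50 after the start). The peaks are on hg19 and were not placed on these sequences base by base. The letters CCNNNAGNNGGC, a short form of the CTCF motif, were searched on both strands and found in 2 of the 9 promoters, STAG1 and NIPBL, against 10.6% of all 35116 promoters in the table. STAG1 is shown because its start carried the strongest peaks of the 10 loci in Calu3. Its promoter held 2 matches on the gene's strand, 40 to 29 bases before the start and 19 to 30 bases after it. The first line gives the 250 bases before the start (chr3:136752379-136752628, minus strand) and the second the 30 bases around the other match (chr3:136752340-136752369, minus strand), with matches in capitals.
STAG1: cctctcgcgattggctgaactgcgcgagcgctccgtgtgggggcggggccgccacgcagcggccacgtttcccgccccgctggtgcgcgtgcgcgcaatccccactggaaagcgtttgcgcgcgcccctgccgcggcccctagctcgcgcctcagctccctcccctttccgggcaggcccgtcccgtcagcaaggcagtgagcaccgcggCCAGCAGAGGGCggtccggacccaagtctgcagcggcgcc
STAG1 after the start: tggaaaatgCCACCAGATGGCgggttagga

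NIPBL, PDS5B and SMC3 are shown because their starts carried CTCF alone, all 3 lists and Calu3 BRD8 alone. The NIPBL match lay 173 to 162 bases before the start on the opposite strand. The CTCF peak of this start was 85 bp wide, with its summit 911 bp upstream of the start given to the nearest 1 kb. The match is placed from the GRCh38 start and the peak from this rounded hg19 start. The match therefore cannot be placed inside or outside the peak, and it is not tied to the CTCF call. A shorter string of the CTCF motif, AGGGGGC, was found in 2 of 9 promoters, PDS5B (91 to 85 bases before the start) and YY1 (32 to 26 bases before, opposite strand), against 14.4% of all promoters. It can overlap the longer form, but did not in these 9. CCATNTT, a short form of the YY1 motif, was found in 4 of 9, SMC3 (7 to 1 bases before the start), PDS5B (2 to 8 after), CTCF and MAU2 (29 to 35 after in both), against 15.6%. ACTACAA, from the ZNF143 motif, was found in none of the 9, against 2.77%. A match describes the letters in this window and is not a bound site. Capitals mark the long CTCF form in NIPBL (chr5:36876519-36876768, plus strand), AGGGGGC in PDS5B (chr13:32586202-32586451, plus strand) and the YY1 form in SMC3 (chr10:110567445-110567694, plus strand).
NIPBL: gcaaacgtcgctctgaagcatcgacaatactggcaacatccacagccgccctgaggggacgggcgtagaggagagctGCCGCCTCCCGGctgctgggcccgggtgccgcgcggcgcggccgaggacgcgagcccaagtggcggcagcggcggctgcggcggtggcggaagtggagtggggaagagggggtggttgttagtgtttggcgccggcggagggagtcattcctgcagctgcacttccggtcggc
PDS5B: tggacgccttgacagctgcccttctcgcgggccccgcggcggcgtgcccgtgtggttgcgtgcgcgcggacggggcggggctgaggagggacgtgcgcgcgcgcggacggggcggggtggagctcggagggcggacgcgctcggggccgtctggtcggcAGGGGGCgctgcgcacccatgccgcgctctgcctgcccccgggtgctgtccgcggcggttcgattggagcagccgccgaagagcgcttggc
SMC3: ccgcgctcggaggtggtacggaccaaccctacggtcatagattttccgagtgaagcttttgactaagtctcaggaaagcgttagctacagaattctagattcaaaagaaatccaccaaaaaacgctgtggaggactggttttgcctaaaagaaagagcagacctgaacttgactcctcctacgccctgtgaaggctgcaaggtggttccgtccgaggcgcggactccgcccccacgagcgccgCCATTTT

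Of 21 other genes of the pathway, among them SMC1A, STAG2, WAPL and CTCFL, 18 had a promoter entry. The long CTCF form was found in 3 of these 18 (CTCFL, STAG2, TOP2B), AGGGGGC in 6, the YY1 form in 4 and ACTACAA in 2 (ESPL1, WAPL). Over all promoters the shares were 10.6%, 14.4%, 15.6% and 2.77% in the same order. These shares count each promoter entry, while a gene was counted if any of its entries matched, so they are not directly comparable. The starts of these other genes were not placed on hg19, since no hg19 annotation was used here, and their peaks were not analysed here.

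Peaks were unevenly spread over the 10 loci. CTCF had 20 peaks and YY1 18, while RAD21 had 1 and SMC3 2. MAU2 had 10, PDS5A and ZNF143 had 7 each, STAG1 6, PDS5B 5 and NIPBL 3. In each list 8 of the 10 loci had at least 1 peak. Of 15169 tiles of 200 kb over the autosomes and X, 28.2% held a Calu3 BRD8 summit, 32.5% a 16HBE14o- BRD8 summit and 43.5% a CTCF summit. The windows held 8.50 Calu3 BRD8 peaks per Mb against 3.22 over these chromosomes, 13.0 against 3.13 for 16HBE14o- BRD8 and 18.0 against 5.41 for CTCF. The tiles were not matched to gene starts, so these values do not set the machinery genes apart from other genes. The summit nearest to the edge of the rule on the inside was a 16HBE14o- BRD8 summit 99.6 kb from the NIPBL start (signal 22.8), and those nearest on the outside were a CTCF (signal 49.6) and a 16HBE14o- BRD8 summit (signal 27.8), each 105.0 kb from the SMC3 start.

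**Figure D1:**
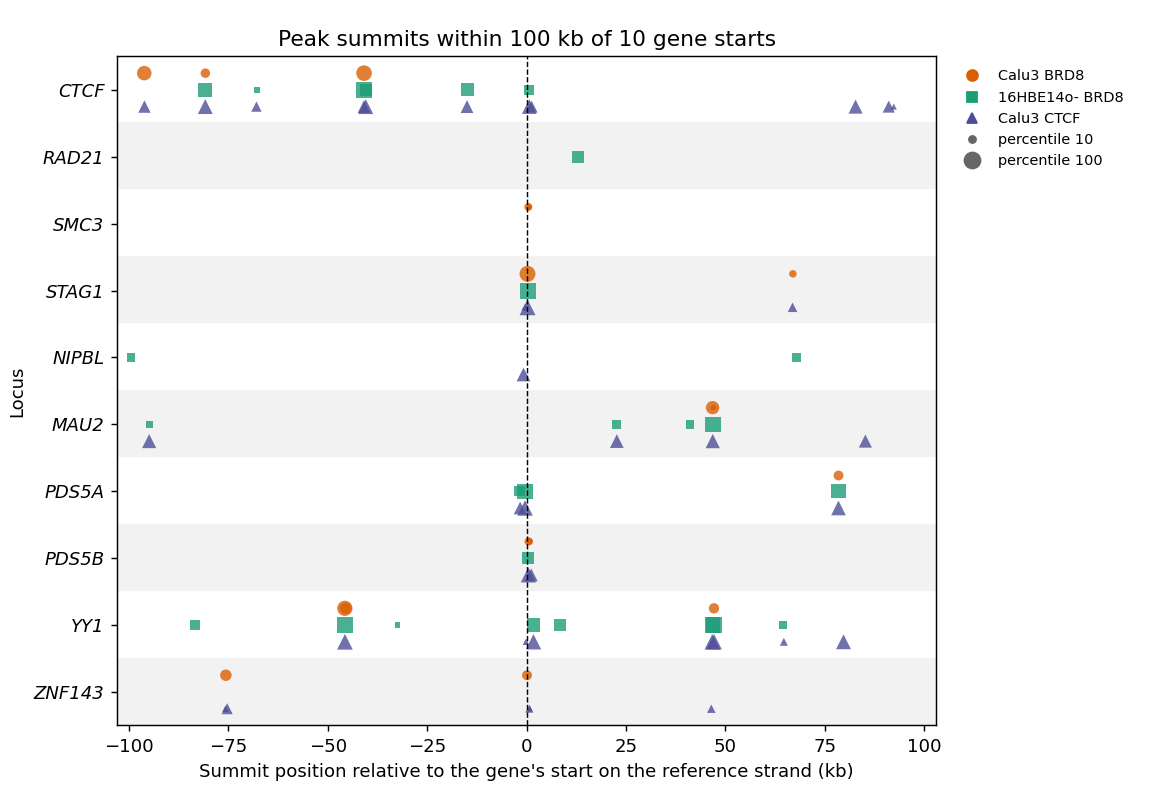
Position of each of the 79 peak summits relative to the start of its gene (x axis, kb, on the reference strand) for the 10 loci (y axis), with colour and shape for the list and symbol size for the signal percentile within that list. STAG1, PDS5B, PDS5A, CTCF and ZNF143 have summits of at least 2 lists within 1 kb of the start, and RAD21 and MAU2 have none.

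**Figure D2:**
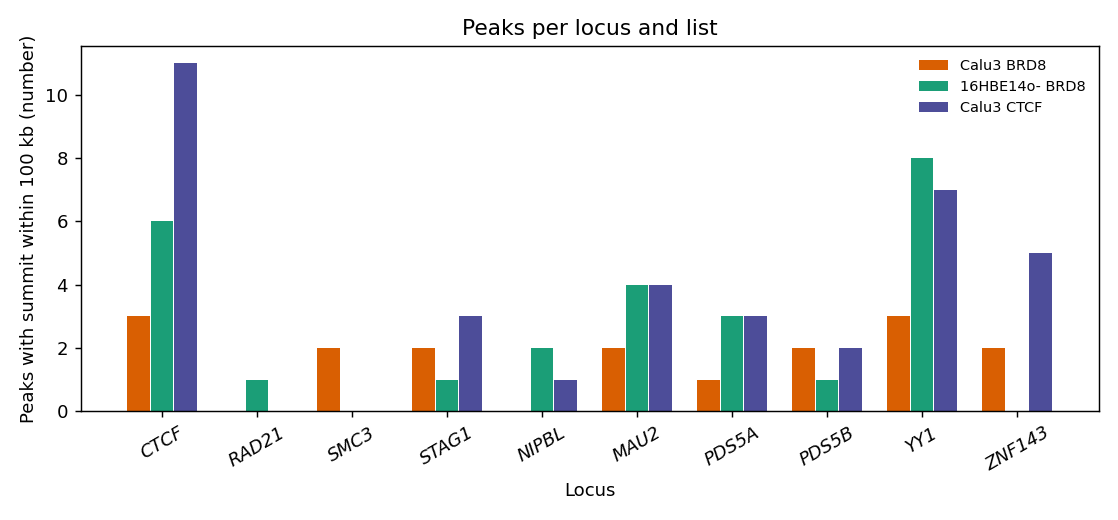
Number of peaks with a summit within 100 kb of the start (y axis) for each locus (x axis), with 1 bar per list. CTCF reaches 11 CTCF peaks and YY1 8 16HBE14o- BRD8 peaks, while RAD21 has 1 peak in all.

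Summits within 1 kb of the start were found for CTCF in 7 of 10 genes, for BRD8 in 4 of 10 in Calu3 and for BRD8 in 4 of 10 in 16HBE14o-. Of 1518140 tiles of 2 kb, 1.02%, 0.542% and 0.616% held a summit of these lists. These tiles were not matched to gene starts either, and the share of all gene starts with a summit was not computed. The counts therefore do not set these genes apart from other genes. Both BRD8 lists met at the starts of STAG1 and PDS5B, where CTCF was called too. The other Calu3 starts were SMC3 and ZNF143, and the other 16HBE14o- starts were CTCF and PDS5A. Below, a peak's strength is the authors' signal together with its percentile within its own list, where 100 is the strongest end. Signals of different lists may differ in scale and are not compared.

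The gene for CTCF itself (16q22.1, between RIPOR1 and CARMIL2 in RefSeq's gene order) had CTCF and 16HBE14o- BRD8 at its start. The CTCF summit lay 689 bp from the start (chromosome 16, 67596636 to 67596867) with signal 110 at percentile 82.2. The 16HBE14o- BRD8 summit was 25 bp from it, with signal 25.6 at percentile 32.9. No Calu3 BRD8 summit lay nearer to the start than 40.9 kb upstream.

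At that upstream site of the CTCF locus (chromosome 16, 67554902 to 67555377) all 3 lists overlapped. BRD8 reached signal 84.3 in Calu3 and 52.1 in 16HBE14o-, at percentiles 95.5 and 93.4, the highest BRD8 ranks of this locus in both lines. CTCF stood at signal 41.7 (percentile 59.5), with its summit 19 bp from the Calu3 and 5 bp from the 16HBE14o- BRD8 summit. The strongest CTCF peak of the locus, with signal 135 at percentile 86.6, was next to it (67555487 to 67555645), overlapped 16HBE14o- BRD8 (percentile 52.5) and had no Calu3 BRD8 peak. A second site of all 3 lists lay 80.8 kb upstream (67514985 to 67515460), where BRD8 was at percentile 27.9 in Calu3 and 70.6 in 16HBE14o- and CTCF at 85.1. Downstream of the start the locus had 5 CTCF peaks, of which the one 689 bp away overlapped BRD8 of 16HBE14o- and the other 4 overlapped no BRD8 peak.

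Among the genes of the cohesin ring, STAG1 stood out for strong peaks and RAD21 and SMC3 for few. STAG1 encodes one of the alternative STAG subunits (3q22.3). At its start (chromosome 3, 136471073 to 136471432) the Calu3 BRD8 peak had signal 226 and ranked 32 of 9769, at percentile 99.7. The 16HBE14o- BRD8 peak had signal 65.5 and ranked 239 of 9505, at percentile 97.5. The CTCF peak had signal 339 and ranked 13 of 16413, at percentile 99.9. The 3 summits lay within 3 bp of each other, 251 to 254 bp from the given start. A second CTCF peak 389 bp on the other side of the given start was weak, with signal 19.3 at percentile 10.4. The remaining pair of the locus, 66.9 kb and 67.0 kb upstream, was CTCF at percentile 28.4 and Calu3 BRD8 at percentile 13.2.

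SMC3 encodes one of the ring's arms (10q25.2). Its peaks were 2 overlapping Calu3 BRD8 peaks, 448 bp (chromosome 10, 112327211 to 112327686, signal 20.4) and 650 bp (signal 8.12) from the start. Both were weak, at percentiles 16.4 and 1.73. The nearest CTCF and 16HBE14o- BRD8 summits were each 105 kb from the start. SMC3 was the locus with BRD8 at its start and no CTCF peak within 100 kb.

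RAD21 encodes the subunit that closes the ring (8q24.11). Its single peak was BRD8 in 16HBE14o-, 12.9 kb from the start (chromosome 8, 117899809 to 117900032), with signal 27.5 at percentile 42.2. The nearest CTCF summit was 108 kb from the start. The nearest Calu3 BRD8 summit was 2993 kb away.

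The loader genes also had little at their starts. NIPBL (5p13.2) had a CTCF peak 911 bp from its start (chromosome 5, 36876032 to 36876116) with signal 62.9 at percentile 71.7 and no BRD8 peak at it in either line. Its BRD8 peaks were from 16HBE14o-, 67.9 kb downstream and 99.6 kb upstream, at percentiles 21.8 and 17.8, both without CTCF. The nearest Calu3 BRD8 summit was 137 kb from the start. At MAU2 (19p13.11) the site nearest to the start was CTCF with 16HBE14o- BRD8, 22.7 kb downstream (chromosome 19, 19453579 to 19453868), at percentiles 71.2 and 21.8. Its strongest site was 46.8 kb downstream (19477574 to 19478250), where all 3 lists overlapped. There BRD8 had signal 39.1 in Calu3 (percentile 66.4) and 60.5 in 16HBE14o- (percentile 96.5), and CTCF had signal 85.1 (percentile 77.9).

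The PDS5 genes both had a strong CTCF peak at the start and differed in BRD8 of Calu3. At PDS5A (4p14) the CTCF peak 365 bp from the start (chromosome 4, 39979504 to 39979752) had signal 185 at percentile 93.5. The 16HBE14o- BRD8 summit was 9 bp away with signal 46.8 at percentile 89.9. A second pair of CTCF and 16HBE14o- BRD8 lay 1.59 kb and 1.78 kb from the start, at percentiles 60.3 and 33.7. Neither pair had a Calu3 BRD8 peak, and the only one of this locus was 78.4 kb upstream (40058175 to 40058650). That site carried all 3 lists, with BRD8 at percentile 31.2 in Calu3 and 80.0 in 16HBE14o- and CTCF at 83.4.

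At PDS5B (13q13.1) all 3 lists overlapped at the start (chromosome 13, 33160287 to 33161026). CTCF had signal 154 at percentile 89.4. The 16HBE14o- BRD8 summit was 4 bp from it, with signal 31.2 at percentile 58.2. Calu3 BRD8 was called as 2 overlapping peaks of signal 21.8 and 13.0, at percentiles 18.2 and 8.59, the stronger with its summit 53 bp from CTCF. A further CTCF peak, 1.19 kb from the start and at percentile 63.3, overlapped no BRD8 peak, and the locus had no other peaks. Within each list, the start of STAG1 thus outranked that of PDS5B for CTCF and for BRD8 in both lines.

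YY1 (14q32.2, between DEGS2 and SLC25A29) had its strong sites on both sides of the gene's start. The CTCF peak nearest to the start, 161 bp away, was weak, with signal 17.6 at percentile 6.57 and no BRD8. A stronger CTCF peak lay 1.75 kb downstream (chromosome 14, 100706615 to 100706884, signal 172, percentile 91.9), with a 16HBE14o- BRD8 summit 1 bp from it (signal 33.9, percentile 66.9) and no Calu3 BRD8 peak. The strongest site of the locus was 45.7 kb upstream (100659074 to 100659776). There BRD8 had signal 64.3 in Calu3 and 68.4 in 16HBE14o-, at percentiles 90.6 and 98.0, and CTCF had signal 212 at percentile 96.1. These were the highest values of the locus in all 3 lists.

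Downstream, YY1 had 2 neighbouring CTCF peaks 46.7 kb and 47.2 kb from the start, with signal 202 and 185, ranked 814 and 1058 of 16413. BRD8 of 16HBE14o- overlapped both, at percentiles 91.5 and 94.8. Calu3 BRD8 overlapped the second (100751919 to 100752394), at percentile 35.5. Of the 8 BRD8 peaks of 16HBE14o- at this locus, 3 had no CTCF: 83.4 kb and 32.5 kb upstream and 8.35 kb downstream, at percentiles 27.1, 1.17 and 52.0.

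ZNF143 (11p15.4, between IPO7 and WEE1) had BRD8 peaks of Calu3 and none of 16HBE14o-. The Calu3 BRD8 summit 122 bp from the start (chromosome 11, 9481885 to 9482360, signal 26.6, percentile 32.4) overlapped no CTCF peak. A pair of overlapping CTCF peaks stood beside it with summits 698 bp and 900 bp from the start, both weak, at percentiles 17.1 and 1.66. Upstream, 75.6 kb away, a Calu3 BRD8 peak (percentile 46.6) overlapped 2 CTCF peaks (percentiles 7.51 and 42.8). The remaining CTCF peak, 46.5 kb downstream, was at percentile 20.2. All 5 CTCF peaks of this locus were below the middle of their list. The nearest 16HBE14o- BRD8 summit was 323 kb from the start.

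**Figure D3:**
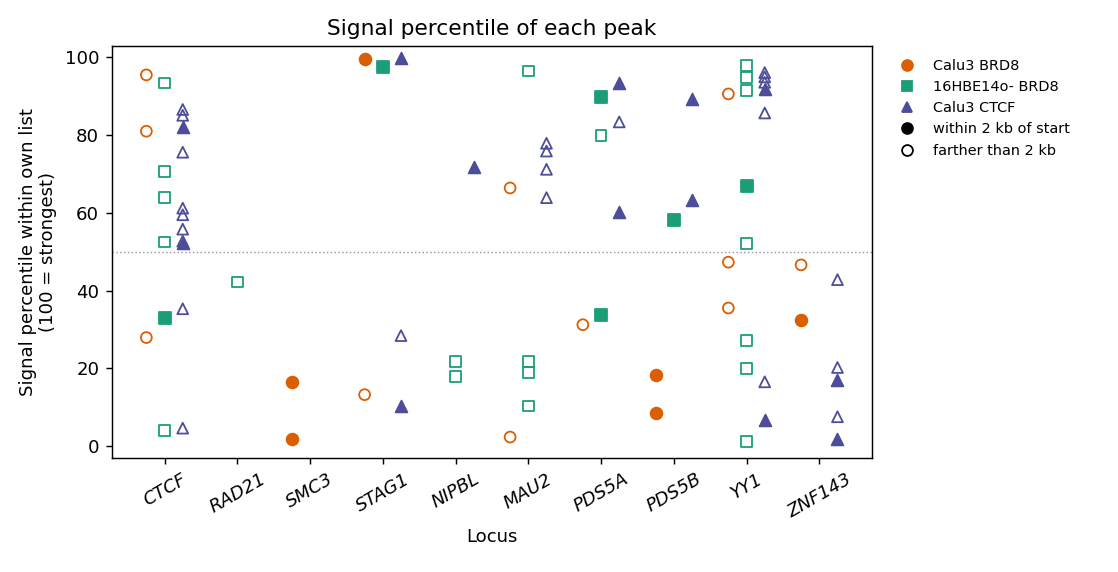
Signal percentile of each peak within its own list (y axis, 100 strongest) by locus (x axis), filled within 2 kb of the start and open beyond it. Of the 4 filled STAG1 symbols, 3 are at 99.7, 97.5 and 99.9 and the fourth, a CTCF peak, is at 10.4; the filled Calu3 BRD8 symbols of SMC3, PDS5B and ZNF143 lie at 32.4 or below.

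As ranked within their lists, the peaks of the 10 loci spanned nearly the full range. The median percentile was 32.4 for 17 Calu3 BRD8 peaks (1.73 to 99.7), 52.3 for 26 16HBE14o- BRD8 peaks (1.17 to 98.0) and 63.6 for 36 CTCF peaks (1.66 to 99.9), where a whole list has 50 as its middle. In signal, the Calu3 BRD8 median was 26.6 against 32.1 for its list, the 16HBE14o- BRD8 median 29.7 against 29.2 and the CTCF median 46.8 against 34.3. The strongest 10.0% of each list by signal held 3 of the 17, 6 of the 26 and 6 of the 36 peaks. The 3 of Calu3 BRD8 were at the STAG1 start, 40.9 kb upstream of CTCF and 45.7 kb upstream of YY1. The same 3 sites were among the strongest 10.0% of 16HBE14o- BRD8, whose other 3 were at MAU2 and at both downstream sites of YY1.

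Overlap was counted from 1 bp, with a 95% exact Clopper-Pearson interval that covers counting error only. Of the Calu3 BRD8 peaks at the 10 loci, 14 of 17 overlapped CTCF (82.4%, 56.6 to 96.2%), against 70.5% of the list. Of those of 16HBE14o-, 19 of 26 overlapped Calu3 CTCF (73.1%, 52.2 to 88.4%), against 65.3%. The 3 Calu3 BRD8 peaks without CTCF were the pair at SMC3 and the one at the ZNF143 start. Between the lines, 11 of 17 Calu3 BRD8 peaks overlapped a 16HBE14o- peak (64.7%, 38.3 to 85.8%), against 50.1%, and 8 of 26 in the other direction (30.8%, 14.3 to 51.8%), against 43.4%. From the side of CTCF, 12 of 36 peaks overlapped Calu3 BRD8 (33.3%, 18.6 to 51.0%), against 36.1%, and 19 of 36 overlapped 16HBE14o- BRD8 (52.8%, 35.5 to 69.6%), against 38.0%. All 6 intervals include the share of the whole list. Neighbouring peaks are not independent.

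**Figure D4:**
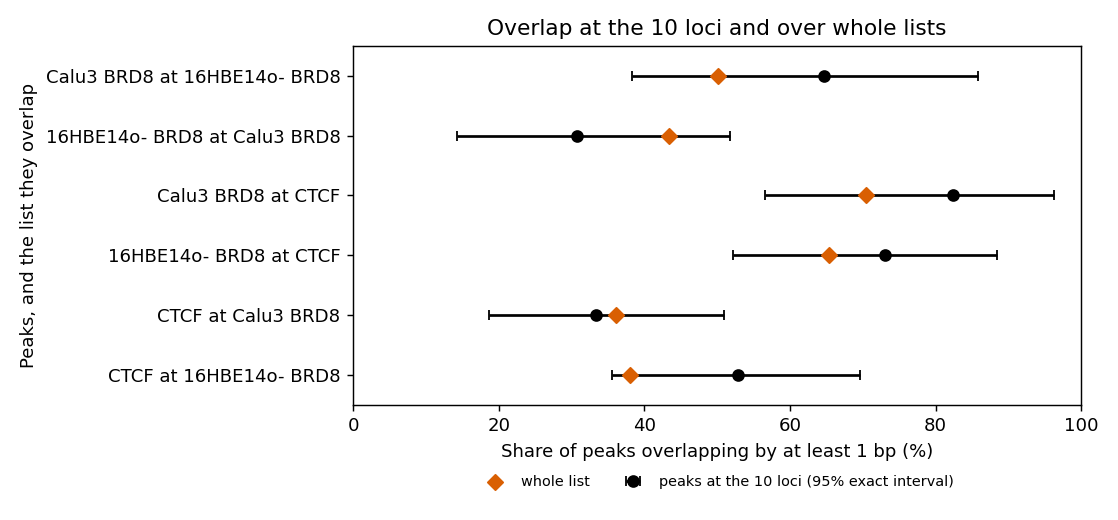
Share of peaks that overlap another list by at least 1 bp (x axis, %) for 6 pairs of lists (y axis), as black points with 95% exact intervals for the 10 loci and orange diamonds for whole lists. Each diamond lies within the interval, and the widest gap is for CTCF peaks at 16HBE14o- BRD8, 52.8% against 38.0%.

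Merged over the 3 lists, the 79 peaks formed 43 regions. All 3 lists met in 8 of them (18.6%, against 16.8% of 21110 regions in the genome), at CTCF, STAG1, MAU2, PDS5A, PDS5B and YY1. CTCF with BRD8 of 16HBE14o- but not Calu3 made up 11 (25.6%, against 12.5%), at CTCF, MAU2, PDS5A and YY1. CTCF with BRD8 of Calu3 but not 16HBE14o- made up 3 (6.98%, against 10.6%), at CTCF, STAG1 and ZNF143. CTCF alone made up 12 (27.9%, against 35.8%), at 7 of the loci. BRD8 without CTCF was found in 7 regions for 16HBE14o- alone (16.3%, against 12.9%), 2 for Calu3 alone (4.65%, against 8.71%) and none for both lines (against 2.67%). All 8 regions with BRD8 of both lines held a Calu3 CTCF peak, as did 86.3% of the 4105 such regions in the genome, so 8 of 8 does not set these loci apart.

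The distance between BRD8 and CTCF summits was measured only where the peaks overlapped, which by itself keeps the summits close. The median distance from a BRD8 summit to the nearest CTCF summit was 48.5 bp over 14 Calu3 peaks (3 to 317 bp), against 37.0 bp over the list. It was 24.0 bp over 19 peaks of 16HBE14o- (1 to 227 bp), against 19.0 bp. The widths of the peaks at these loci, mostly 476 bp in Calu3 and 224 bp in 16HBE14o-, allow summits further apart in Calu3.

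More BRD8 peaks of 16HBE14o- than of Calu3 were found at 6 loci (CTCF, RAD21, NIPBL, MAU2, PDS5A and YY1) and more of Calu3 at 4 (SMC3, STAG1, PDS5B and ZNF143). The PDS5B count, 2 against 1, comes from 1 Calu3 region called as 2 overlapping peaks. After overlapping peaks of a list were merged, a count added after seeing the data, PDS5B had 1 region in each line, and 6 loci had more in 16HBE14o- and 3 more in Calu3. By peaks, the whole chromosome arm leaned to the same line as the locus at 7 of the 10, and by merged regions at 8, with PDS5B equal and RAD21 against its arm. The arm of ZNF143, 11p, had 251 BRD8 peaks in Calu3 and 31 in 16HBE14o-. That of STAG1, 3q, had 820 and 251, and that of SMC3, 10q, had 356 and 253. In the other direction 4p, with PDS5A, had 44 and 106, 14q, with YY1, had 286 and 541, 16q, with CTCF, had 123 and 211, and 5p, with NIPBL, had 80 and 130. By peaks, RAD21 (8q, 254 and 201), MAU2 (19p, 149 and 133) and PDS5B (13q, 46 and 126) went against their arms; merged, 19p had 128 and 133 regions and leaned like MAU2. The part of the arm in the counts at these loci was not tested.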

How the data were processed

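ChIP-seq of BRD8 (Calu3, 16HBE14o-) and CTCF (Calu3) gave 3 peak lists, narrowPeak tables on hg19 per the file headers. Per the series' design text, the authors derived each from 2 replicates by IDR. The aligner, peak caller, control library and IDR settings are not given in the sources used here. The deposited columns used were the authors' signal, by which peaks were ranked within a list, and the summit offset, a number in bp. The authors' score columns were not used in any result. In the CTCF list 3 peaks have a summit offset outside the peak, none of them at these loci. Values are per list, so nothing was tested across samples, and depth is unknown.

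Loci, motifs and gene lists were chosen with earlier results of these data known. Named in each locus are the peaks nearest to the start, those of highest signal and regions where all 3 lists overlap, with others described to complete a locus. Summits within 100 kb of a start (rounded to 1 kb, so distances can be off by as much) were taken. Overlap was computed with pandas 2.3.3 and numpy 2.4.6 under Python 3.11.15 and gave the counts of bedtools 2.31.1. A run on simulated partners placed on Calu3 BRD8 summits checked only that each was found and did not count false overlaps. The exact intervals came from scipy 1.17.1. Chromosome lengths and bands came from circlize 0.4.16 (R 4.3.3), figures from matplotlib 3.10.9. Promoters and gene order came from RefSeq tables of GRCh38.p14, with no coordinates converted. Alternatives were other windows, overlap rules, peak widths, the upper 50% by signal, merged peaks and, added after seeing the data, leaving out the CTCF or YY1 locus.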

Additional observations from a re-analysis of the deposited data

How the results depend on the processing

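Of 54 alternative values for the 6 shares of overlap, 49 stayed within the interval of the reported share and 5 did not. These intervals are wide and the alternatives reuse many of the same peaks, so staying within one is a weak check. For Calu3 BRD8 peaks at 16HBE14o- BRD8, 47.1% with summits within 100 bp counted as within, against 64.7% as reported (38.3 to 85.8%). With a reciprocal overlap of at least 50%, the share of Calu3 BRD8 peaks at 16HBE14o- BRD8 was 5.88%, the reverse 3.85%, and that of Calu3 BRD8 peaks at CTCF 41.2%. The usual Calu3 BRD8 peak is 476 bp and the usual 16HBE14o- peak 224 bp wide. By construction this keeps most BRD8 pairs between the lines below 50% of the wider peak. Width bears on the share at CTCF too, since a CTCF peak narrower than 50% of a Calu3 BRD8 peak cannot meet the rule. This held for CTCF peaks of 153 bp at the CTCF locus, 131 bp at MAU2, 171 bp at PDS5A and 237 bp at PDS5B. The other CTCF peaks that overlapped Calu3 BRD8 were 261 to 325 bp wide. In the upper 50% of each list by signal, CTCF met 100% of the 5 peaks left for Calu3 BRD8 and 92.9% of the 14 left for 16HBE14o- BRD8. The same shares over the upper 50% of whole lists were not computed, so these values do not set the loci apart. Of 27 alternative counts, 20 were within 1.5 times the reported one. Windows of 200 kb on each side held 33 Calu3 BRD8, 42 16HBE14o- BRD8 and 60 CTCF peaks, and windows of 50 kb 22 CTCF peaks. The upper 50% by signal left 5 Calu3 BRD8 and 14 16HBE14o- BRD8 peaks, and 1 start with Calu3 BRD8 within 1 kb, that of STAG1. Leaving out the CTCF or the YY1 locus, chosen after seeing the data, moved no share outside its interval. No paired analysis was possible because each list pools the 2 replicates and carries no value for either, and for the same reason no replicate could be left out. Each locus has few peaks, and the absence of a call does not show that the protein is absent.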

Other observations

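Several Calu3 BRD8 sites at these loci were called as 2 overlapping peaks. This held for 4 of 13 regions, at SMC3, MAU2, PDS5B and YY1, against 18.8% of the 8184 regions of that list. The summits of a pair were 202 bp apart at SMC3, 201 bp at MAU2, 264 bp at PDS5B and 227 bp at YY1. The weaker peak was at percentile 1.73, 2.29, 8.59 and 47.3 of the list, in the same order. Counted as regions, the Calu3 BRD8 peaks of the 10 loci were 13 and not 17.

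The starts of the 9 genes with a promoter entry ranged in GC content, over the 300 bases of the table, from 56.0% at SMC3 to 82.7% at YY1, with 71.3% at STAG1 and 75.7% at PDS5B, where the median of all promoters was 58.7%.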
